A study of Mus musculus with 8 samples.

Results

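The genes described here are 42 G2/M and mitosis genes, which act between the end of DNA replication and the separation of the daughter cells. They were chosen by name: a member is a gene on that list, and its data are the probe sets whose single gene symbol in the platform annotation is that name. By this rule 41 of the 42 listed genes were found among the 18194 genes named on the array. Cyclin B1 (Ccnb1) had no probe set under its symbol alone and was not analysed here. All 41 found members passed the filter on low signals, which left 14267 genes for testing.

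Mouse embryonic stem cells of the 129X1 x 129S1 background were studied on 8 Affymetrix arrays, 2 for each of 4 groups. In the shTop1 coculture group, cells with a hairpin against Top1 (DNA topoisomerase I) had been grown together with mock cells at 1:4 for 4 days. In the shTop1 mix group each cell type was cultured without the other for the 4 days, and only the RNA was combined, again at 1:4. The shp53 coculture and shp53 mix groups were made the same way with cells carrying a hairpin against p53, the tumour suppressor and DNA damage response factor. All 4 groups therefore held mock cells or RNA from them, which were the larger part of the mixes and of the cocultures as they were set up, and were kept under standard stem cell conditions without a differentiation step. Whether a knockdown line was 1 clone or a pool, and what share of each cell type was present when the cocultures were collected, are not given in the sources used here. The comparison of coculture with mix sets cells grown together against cells grown apart. A change in the share of knockdown cells during coculture would also enter it, and cannot be told apart from a change within the cells. The labels call the 2 arrays of a group biological replicates without naming separate cultures, so the p-values below measure the spread between these samples. RNA was measured in bulk, and fewer cells of one kind cannot be told apart from less RNA per cell.

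Entry into mitosis is driven by the kinase Cdk1 with its cyclins, which is held back by Wee1 and released by the Cdc25 phosphatases. Polo and Aurora kinases then build the spindle, kinetochores tie chromosomes to it, and the spindle checkpoint delays anaphase until all are attached. The anaphase-promoting complex with its activator Cdc20 ends the delay by marking cyclin B and securin for destruction, after which the central spindle directs cytokinesis. Many of these genes are transcribed late in the cell cycle, through the MuvB complex bound at a cell cycle genes homology region, called the CHR, and through NF-Y bound at CCAAT boxes. Embryonic stem cells divide fast, with a short G1 phase, so that a large share of a growing culture is in S, G2 or M phase.

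The promoters were read for those letters, since shared promoter elements are a property of the members that the choice by name did not use. RefSeq promoters on GRCm38.p6, from 250 bases before to 50 bases after a gene's start, were at hand for 34 of the 42 listed genes. The CHR core was searched as TTTGAA or TTCGAA and the NF-Y box as CCAAT, on both strands. No pattern holds another whole, although neighbouring matches can share end letters, and TTCGAA reads the same on both strands. Below are the 120 bases before the start, on the strand of the gene, for 8 members. Cdc25b, Prc1, Kif4, Bub1 and Ccnb2 are shown because all their coculture arrays were above all their mix arrays, Nuf2 because it had the largest difference between the knockdowns, and Cdk1 and Ube2c because both kinds of motif lie in the stretch shown. Capitals mark a match, and a box on the other strand reads ATTGG or TTCAAA.
Cdc25b (chr2:131186828-131186947, plus strand): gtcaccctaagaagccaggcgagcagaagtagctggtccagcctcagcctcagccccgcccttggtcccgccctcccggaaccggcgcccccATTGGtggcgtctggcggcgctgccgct
Prc1 (chr7:80294331-80294450, plus strand): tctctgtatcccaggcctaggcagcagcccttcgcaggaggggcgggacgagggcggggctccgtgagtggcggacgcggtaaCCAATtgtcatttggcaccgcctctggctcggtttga
Kif4 (chrX:100625945-100626064, plus strand): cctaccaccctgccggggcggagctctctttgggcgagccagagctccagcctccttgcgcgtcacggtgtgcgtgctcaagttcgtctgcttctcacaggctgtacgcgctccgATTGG
Bub1 (chr2:127831860-127831979, minus strand): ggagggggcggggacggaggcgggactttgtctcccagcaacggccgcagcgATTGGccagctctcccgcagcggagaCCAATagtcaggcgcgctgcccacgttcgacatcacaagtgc
Ccnb2 (chr9:70421555-70421674, minus strand): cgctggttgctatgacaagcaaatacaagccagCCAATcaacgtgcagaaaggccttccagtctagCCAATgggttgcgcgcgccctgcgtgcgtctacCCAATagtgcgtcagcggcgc
Cdk1 (chr10:69352913-69353032, minus strand): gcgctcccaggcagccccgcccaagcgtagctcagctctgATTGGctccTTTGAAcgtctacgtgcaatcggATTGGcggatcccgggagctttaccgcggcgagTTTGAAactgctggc
Ube2c (chr2:164769809-164769928, plus strand): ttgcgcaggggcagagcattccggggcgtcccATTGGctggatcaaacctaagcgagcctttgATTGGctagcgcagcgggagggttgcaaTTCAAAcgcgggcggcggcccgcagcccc
Nuf2 (chr1:169531465-169531584, minus strand): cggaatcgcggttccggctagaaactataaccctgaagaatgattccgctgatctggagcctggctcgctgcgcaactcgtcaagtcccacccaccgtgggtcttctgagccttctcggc

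Other CHR matches of these genes reach past the start or lie farther upstream, and are shown as windows of 20 bases. Positions are counted from the start, whose first base is 1.
Cdc25b, core from position 8 (chr2:131186948-131186967, plus strand): gttatttTTCGAAtatataa
Prc1, core from position -5 (chr7:80294439-80294458, plus strand): ggctcggTTTGAAttccgcg
Kif4, core from position 20 (chrX:100626077-100626096, plus strand): ggatcaaTTTGAAacttggc
Bub1, core from position 15 (chr2:127831833-127831852, minus strand): cggggaaTTCGAAtcgccgg
Ccnb2, core from position -167 (chr9:70421709-70421728, minus strand): actagaaTTTGAAaataaga
Ccnb2, core from position 5 (chr9:70421538-70421557, minus strand): cgcggtaTTTGAAtcgcgga
The CHR core was found in 26 of the 34 members with a promoter, 76.5%, against 21.7% of the 27025 genes with a promoter in the same annotation. The CCAAT box was also found in 26 of the 34, against 41.1% of all genes. Both kinds stood in 23 members, 67.6%, against 8.61% of all genes. Of the members with a CHR match, 13 had one wholly before the start and 17 had one at or after it. The Nuf2 promoter held neither set of letters, in the stretch shown or in the rest of its window. A match is a description of the sequence, and no factor's binding was measured.

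**Figure D1:**
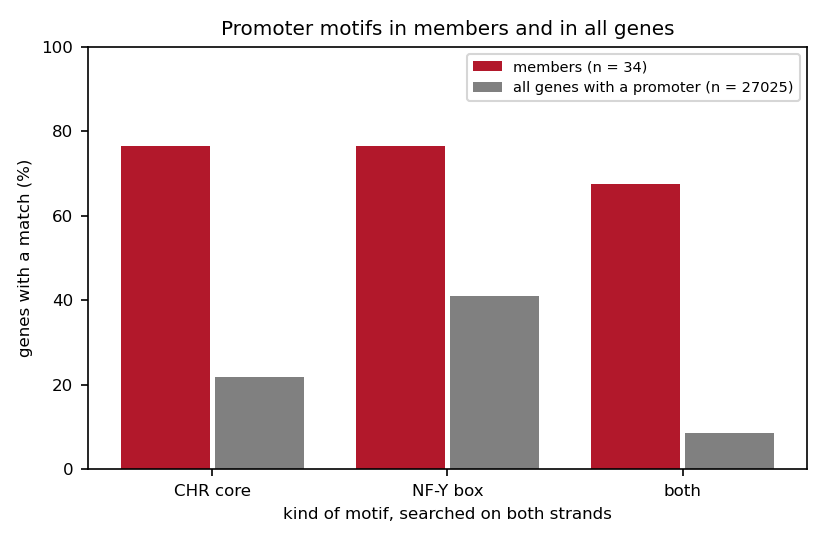
Percentage of genes with a motif match (vertical axis, %) for the CHR core, the NF-Y box and both, in the 34 members (red) and in all 27025 genes with a promoter (grey). The members' bars stand at 76.5%, 76.5% and 67.6%, against 21.7%, 41.1% and 8.61% in all genes.

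Each signal below is the deposited intensity after quantile normalization, on a linear scale without a unit, and each difference is on the scale of log2(signal + 16), coculture minus mix. Per-array values of a gene are listed with replicate 1 before replicate 2. On a first principal component holding 19.9% of the variance over all genes, the 4 cocultures lay between -2.94 and 26.1 and the 4 mixes between -21.1 and -5.14. The second component, 16.9%, set shTop1 coculture replicate 1 apart at -32.6, with the other 7 arrays between -3.63 and 15.5. That array also had the highest mean signal before normalization, 896, in a range of 812 to 896. All 10 markers of embryonic stem cells, Pou5f1 and Nanog among them, were past the filter, and their summed signal was 115500 to 123300 in cocultures and 119000 to 120800 in mixes. Single markers differed both ways in coculture against mix averaged over both knockdowns, with 7 above 0 and 3 below. Pou5f1 was at 0.11, Nanog at 0.20, Fgf4 at 0.21, Sox2 at -0.29, Zfp42 at -0.28 and Tet1 at -0.23 log2. None of the 10 passed the adjusted test in limma, and at an unadjusted p under 0.05 1 was higher and 2 were lower. Top1 itself had signals of 5281 and 5283 in shTop1 coculture, 5110 and 5316 in shTop1 mix, 5572 and 5886 in shp53 coculture and 5456 and 5682 in shp53 mix. All 4 shTop1 arrays were below all 4 shp53 arrays, by 0.11 log2, with a limma p of 0.160 before adjustment and 0.999 after it. As the hairpin cells were set up at 1:4 with mock cells, this bulk difference does not measure how far Top1 was lowered in them. The p53 transcript was not analysed here.

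The members were bright on these arrays. Their probe sets had a median signal of 3926, against 390 for all genes tested, and 34 of the 41 were at or above the 80th percentile, a brightness that does not rank transcript numbers between genes. The SD of log2 signal between replicates of a group had a median of 0.0894 over the members. It was 0.165 over all genes tested and 0.0795 over the 1255 genes tested that reach the members' median level.

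No member passed an adjusted p of 0.05 between coculture and mix when both knockdowns were averaged. The smallest adjusted p of a member in limma was 0.345, for Cdc25b, and the share of all 14267 genes that passed was 0%. The members' median difference was 0.06 log2, against 0.02 over all genes tested, and 31 of the 41 were above 0, 75.6%, against 55.3% of all genes. At an unadjusted p under 0.05, Cdc25b, Kif4 and Prc1 were higher in coculture, 3 of 41 against 7.09% of all genes. Nuf2 was lower at that threshold, 1 of 41 against 4.63% of all genes. In 5 of 41 members, Cdc25b, Prc1, Kif4, Bub1 and Ccnb2, every coculture array was above every mix array, where 5.75% of all genes showed this. In 0 of 41 was every coculture array below every mix array, against 3.35% of all genes.

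The 95% intervals show how large a difference these arrays leave room for. For 37 of 41 members the whole interval lay within 0.5 log2 of 0 in either direction, which is 1.41-fold, and the exceptions were Cdc25b, Nuf2, Espl1 and Foxm1. The median member's interval reached 0.20 log2 to either side of its estimate. Array by array, the count of members above their own mean over all 8 arrays was 20 and 31 in shTop1 coculture, 15 and 12 in shTop1 mix, 33 and 27 in shp53 coculture and 13 and 18 in shp53 mix, of 41. As shares, 48.8% to 80.5% of members were above in cocultures and 29.3% to 43.9% in mixes. For all genes tested the shares were 51.5% to 57.1% and 47.7% to 51.8%. For the 1255 genes that reach the members' median level they were 47.6% to 60.5% and 40.6% to 51.2%. The cocultures held the higher counts of members. The lowest of them was shTop1 coculture replicate 1, which stood apart on the second component, with 48.8% of members against 52.6% of all genes. Without that array the members' median difference was 0.09 log2, and without shTop1 coculture replicate 2 it was 0.04.

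Markers of other cell types were read beside these values. Each sum here covers all markers of a list named on the array, including those below the filter. Of 8 fibroblast markers 4 passed the filter. These 4 were all above 0 in coculture against mix averaged over both knockdowns, and 3 of 4 were in shp53 alone. The 8 markers summed to 649 to 727 in cocultures and 478 to 609 in mixes. Col3a1, Dcn, Lum and Postn were below the filter. All 7 primitive endoderm markers passed, with sums of 11080 to 12420 in cocultures and 10790 to 11040 in mixes. In the averaged comparison and in shp53 all 7 were above 0, and in shTop1 5 of 7 were. Of the markers past the filter, 4 of 5 trophectoderm, 2 of 5 neural and 3 of 4 mesoderm markers were above 0 in the averaged comparison. Trophectoderm markers summed to 1239 to 1559 in cocultures and 1074 to 1562 in mixes, with Elf5 below the filter. Neural markers summed to 982 to 1109 in cocultures and 1057 to 1188 in mixes, with Neurog2 below the filter. T, a listed mesoderm marker, was not found under that symbol and is not in the sum. The other mesoderm markers summed to 357 to 501 in cocultures and 358 to 443 in mixes, with Meox1 below the filter. Their part in the members' values was not tested.

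**Figure D2:**
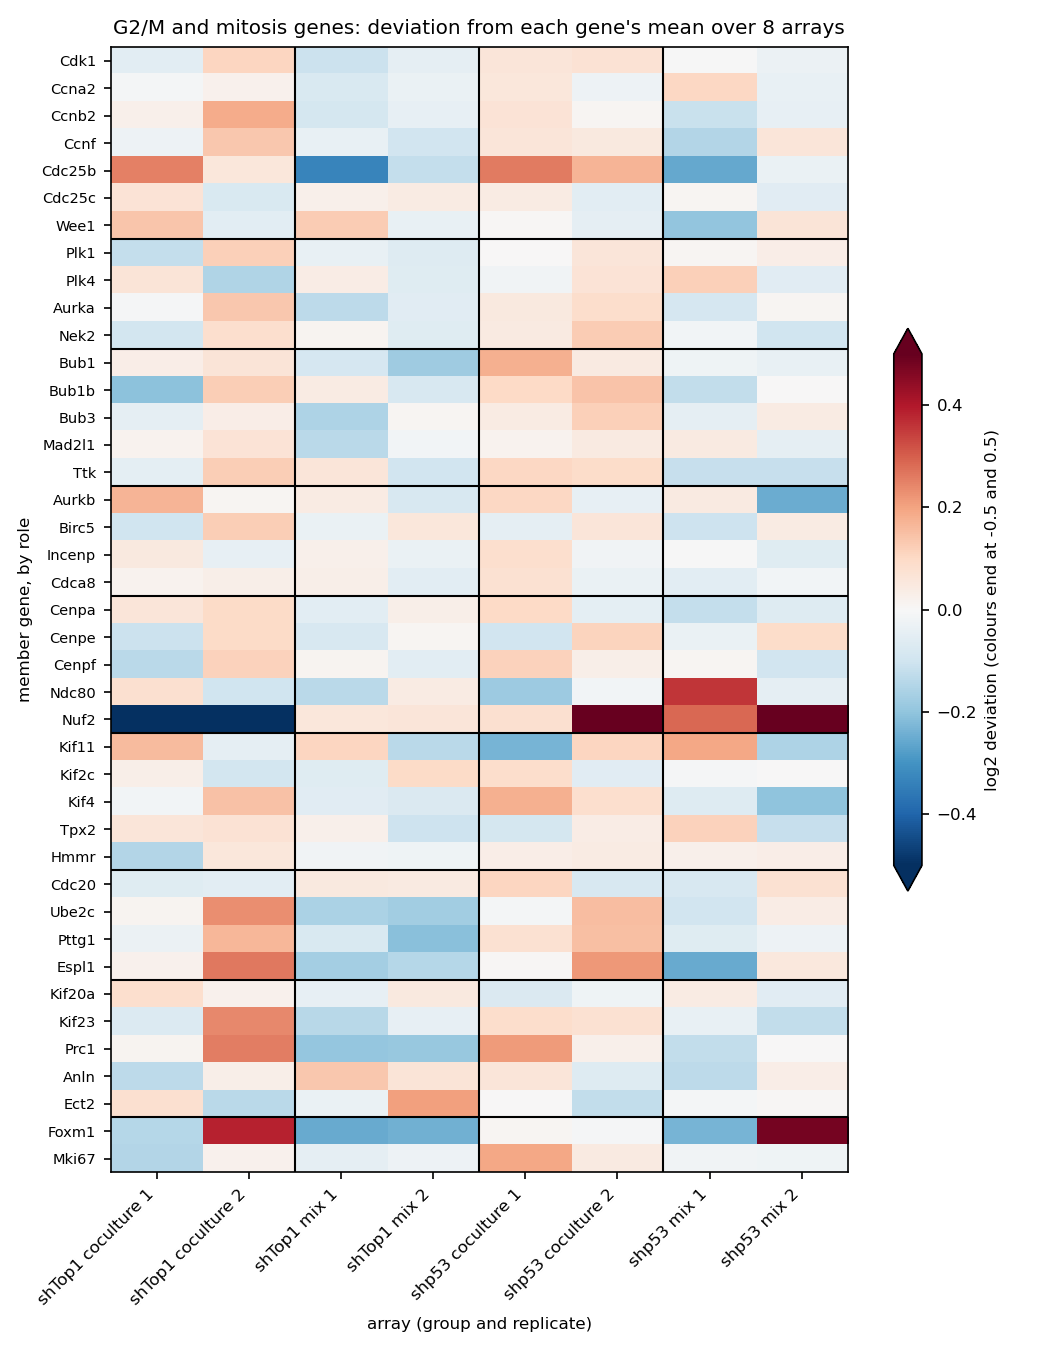
Log2 deviation of each of the 41 members (rows, ordered by role with lines between roles) from its own mean, on each of the 8 arrays (columns); red is above the mean and blue below, and colours end at 0.5 in either direction. Most cells are pale, the coculture columns hold more red than the mix columns, and Nuf2 is the darkest row, blue in both shTop1 coculture arrays.

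Among the genes of the Cdk1 engine and its switches, 6 of 7 tested were above 0, with a median of 0.09 log2, and none passed the test. Cdc25b, the phosphatase that activates Cdk1 at the centrosome at the start of mitosis, had signals of 618 and 538 in shTop1 coculture, 407 and 474 in shTop1 mix, 621 and 583 in shp53 coculture and 430 and 505 in shp53 mix. All 4 coculture arrays were above all 4 mix arrays, in both knockdowns. The difference was 0.37 ± 0.10 log2 (SE), 1.29-fold, with a 95% interval of 0.13 to 0.61, and a limma p of 0.00920 before and 0.345 after adjustment. Ccnb2, cyclin B2, had signals of 6379 and 7139 in shTop1 coculture, 5895 and 6095 in shTop1 mix, 6572 and 6310 in shp53 coculture and 5799 and 6100 in shp53 mix. Its cocultures were again all above its mixes, but by only 0.14 ± 0.07 log2, with a limma adjusted p of 0.495. Cdk1 itself was at 0.09 log2 and Ccnf (cyclin F), which picks substrates for an SCF ubiquitin ligase, at 0.11 log2. Ccna2 (cyclin A2) and the inhibitory kinase Wee1 were both at 0.02 log2. Cdc25c, a sister phosphatase of Cdc25b, was at -0.01 log2.

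Of the 4 mitotic kinases, 3 were above 0, with a median of 0.06 log2. Aurka, which matures the centrosomes and spindle poles, had signals of 3944 and 4346 in shTop1 coculture, 3616 and 3805 in shTop1 mix, 4101 and 4209 in shp53 coculture and 3740 and 3987 in shp53 mix. Within each knockdown its cocultures were above its mixes, while the lowest coculture array was below the highest mix array. The difference was 0.13 ± 0.07 log2. Nek2, which separates the centrosomes, had signals of 4032 and 4555 in shTop1 coculture, 4336 and 4120 in shTop1 mix, 4436 and 4699 in shp53 coculture and 4254 and 4015 in shp53 mix. The groups overlapped for the Top1 knockdown, and the difference over both was 0.08 ± 0.08 log2. Plk1, the Polo kinase of mitotic entry and exit, was at 0.03 log2, and Plk4, which starts centriole duplication, at -0.02 log2, or -0.17 with its probe sets averaged. Aurka was at 0.03 log2 with its probe sets averaged.

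All 5 spindle checkpoint genes were above 0, between 0.07 and 0.16 log2, and none passed the test. Bub1, the kinase that recruits the checkpoint to kinetochores, had signals of 7886 and 8050 in shTop1 coculture, 7261 and 6816 in shTop1 mix, 8723 and 7945 in shp53 coculture and 7584 and 7507 in shp53 mix. All coculture arrays were above all mix arrays, by 0.16 ± 0.07 log2, with a limma adjusted p of 0.448. A dimmer Bub1 probe set stood at 0.01 ± 0.13 log2, and with its probe sets averaged Bub1 was at 0.08 log2. Ttk, the kinase that switches the checkpoint on, had signals of 3213 and 3630 in shTop1 coculture, 3470 and 3112 in shTop1 mix, 3573 and 3546 in shp53 coculture and 3068 and 3074 in shp53 mix. Its groups were apart for the p53 knockdown and overlapped for the Top1 knockdown, with a difference of 0.13 ± 0.08 log2 over both. Bub1b, Bub3 and Mad2l1, which belong to the inhibitor complex that holds Cdc20, were at 0.08, 0.07 and 0.07 log2. With a gene's probe sets averaged, Bub1b and Bub3 were at -0.13 and -0.12 log2, leaving 3 of 5 above 0. These averages weigh dim probe sets like bright ones. A Bub1b probe set with a signal of 3954 was at 0.04 log2, and the dimmest, at 29.0, was at -0.50 ± 0.34 log2. The other Bub3 probe sets, with signals of 45.1 to 511, were between -0.42 and -0.01 log2.

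The 4 genes of the chromosomal passenger complex, which corrects faulty attachments and moves to the central spindle at anaphase, were all above 0 by 0.12 log2 or less. Its kinase Aurkb had signals of 1565 and 1398 in shTop1 coculture, 1431 and 1313 in shTop1 mix, 1494 and 1351 in shp53 coculture and 1436 and 1169 in shp53 mix. Coculture and mix overlapped in both knockdowns, and the difference of 0.12 ± 0.10 log2 was near its own error. Cdca8 (borealin) had signals of 8779 and 8843 in shTop1 coculture, 8859 and 8352 in shTop1 mix, 9153 and 8468 in shp53 coculture and 8363 and 8579 in shp53 mix. These overlapped too, at 0.05 ± 0.07 log2. Its partners Incenp, the scaffold, and Birc5 (survivin) were at 0.04 and 0.02 log2.

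The kinetochore group held the member with the largest single difference, Nuf2, a subunit of the Ndc80 complex that grips microtubules. Nuf2 had signals of 488 and 334 in shTop1 coculture, 761 and 762 in shTop1 mix, 772 and 1156 in shp53 coculture and 896 and 1058 in shp53 mix. The shTop1 cocultures were the lowest 2 of the 8 arrays, and the p53 groups overlapped. Averaged over both knockdowns, Nuf2 was at -0.46 ± 0.18 log2, 0.724-fold, with a limma p of 0.0379 before and 0.401 after adjustment. The other named subunits of the same complex did not share the pattern of low shTop1 cocultures. Ndc80 had signals of 897 and 789 in shTop1 coculture, 770 and 874 in shTop1 mix, 746 and 839 in shp53 coculture and 1091 and 821 in shp53 mix, a difference of -0.11 log2. Spc24 was at 0.05 log2 and Spc25 at 0.19 log2, and neither is on the member list. In the shTop1 comparison alone the complex's 4 subunits were at -0.89 log2 for Nuf2, 0.04 for Ndc80, 0.16 for Spc24 and 0.19 for Spc25. Ndc80, Spc24 and Spc25 were set beside Nuf2 after their values were seen.

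Cenpa, the histone H3 variant that marks centromeres, had signals of 5668 and 5818 in shTop1 coculture, 5246 and 5545 in shTop1 mix, 5821 and 5258 in shp53 coculture and 5008 and 5192 in shp53 mix. Cocultures were above mixes within each knockdown, with a difference of 0.10 ± 0.07 log2. Cenpf, a large kinetochore protein that accumulates in G2, was at 0.06 log2. Cenpe, the kinetochore motor that helps align chromosomes, was at 0.00 log2, or -0.16 with its probe sets averaged. Of these 5 genes 3 were above 0, or 2 without the quantile step.

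Among the spindle motors and microtubule binders 2 of 5 were above 0, a count that was 5 with median centring and 4 on the values as the authors had scaled them. Kif4, a chromosome-bound kinesin that also shapes the central spindle, had signals of 985 and 1103 in shTop1 coculture, 957 and 947 in shTop1 mix, 1129 and 1057 in shp53 coculture and 951 and 863 in shp53 mix. All coculture arrays were above all mix arrays. The difference was 0.20 ± 0.08 log2, 1.15-fold, with a limma p of 0.0435 before and 0.411 after adjustment. Tpx2, which targets Aurka to the spindle, had signals of 3111 and 3137 in shTop1 coculture, 3036 and 2774 in shTop1 mix, 2807 and 3062 in shp53 coculture and 3237 and 2753 in shp53 mix. Coculture and mix overlapped, at 0.04 ± 0.09 log2, and the value was -0.02 without shp53 mix replicate 2. Kif11, the motor that pushes spindle poles apart, Kif2c, which depolymerizes microtubules, and Hmmr, a spindle assembly protein, were each at -0.01 log2.

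The 4 genes that carry out anaphase had the highest median of the roles, 0.19 log2, with 3 above 0 and none past the test. Espl1 (separase), the protease that cuts cohesin, had signals of 3497 and 4141 in shTop1 coculture, 3063 and 3118 in shTop1 mix, 3454 and 4007 in shp53 coculture and 2888 and 3575 in shp53 mix. Coculture and mix overlapped only through shp53 mix replicate 2, and the difference was 0.25 ± 0.11 log2 with a limma adjusted p of 0.441. Pttg1 (securin), the inhibitor of separase, had signals of 14910 and 17100 in shTop1 coculture, 14460 and 13170 in shTop1 mix, 16060 and 16910 in shp53 coculture and 14610 and 14980 in shp53 mix. The difference was 0.18 ± 0.08 log2, and within each knockdown the cocultures were above the mixes. Ube2c, the ubiquitin-conjugating enzyme of the anaphase-promoting complex, was at 0.20 log2. Cdc20, the brightest member, had signals of 15130 and 15180 in shTop1 coculture, 16290 and 16240 in shTop1 mix, 16970 and 14910 in shp53 coculture and 14900 and 16630 in shp53 mix. It was at -0.04 ± 0.08 log2, and at 0.05 with median centring and 0.02 with its probe sets averaged, so no direction can be given.

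In the central spindle and cytokinesis group 3 of 5 genes were above 0. Prc1, which bundles the midzone microtubules, had signals of 3231 and 3817 in shTop1 coculture, 2794 and 2802 in shTop1 mix, 3706 and 3251 in shp53 coculture and 2933 and 3207 in shp53 mix. All coculture arrays were above all mix arrays, by 0.25 ± 0.09 log2 or 1.19-fold, with a limma p of 0.0321 before and 0.386 after adjustment. A dimmer Prc1 probe set stood at 0.04 ± 0.14 log2. Kif23, the motor subunit of centralspindlin, had signals of 3074 and 3808 in shTop1 coculture, 2924 and 3136 in shTop1 mix, 3429 and 3400 in shp53 coculture and 3145 and 2958 in shp53 mix. The groups overlapped for the Top1 knockdown, and the difference was 0.17 ± 0.09 log2 with the brightest probe set and -0.10 with its probe sets averaged. Its dimmer probe sets, with signals of 547 and 50.3, were at -0.10 and -0.37 log2. Kif20a, a midzone kinesin, was at 0.00 log2, Anln (anillin), of the contractile ring, at -0.05 log2, and Ect2, which activates RhoA at the division plane, at -0.09 log2. Anln was at 0.12 log2 with its probe sets averaged.

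Foxm1, a transcription factor that drives many late cell cycle genes, had signals of 210 and 309 in shTop1 coculture, 193 and 195 in shTop1 mix, 235 and 232 in shp53 coculture and 196 and 331 in shp53 mix. It was the dimmest member, its replicates were far apart in shTop1 coculture and in shp53 mix, and the difference of 0.12 ± 0.19 log2 was smaller than its error. Mki67, the proliferation marker Ki-67, had signals of 4798 and 5386 in shTop1 coculture, 5144 and 5222 in shTop1 mix, 6070 and 5478 in shp53 coculture and 5241 and 5237 in shp53 mix. The difference was 0.06 ± 0.08 log2, with a 95% interval of -0.13 to 0.24.

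**Figure D3:**
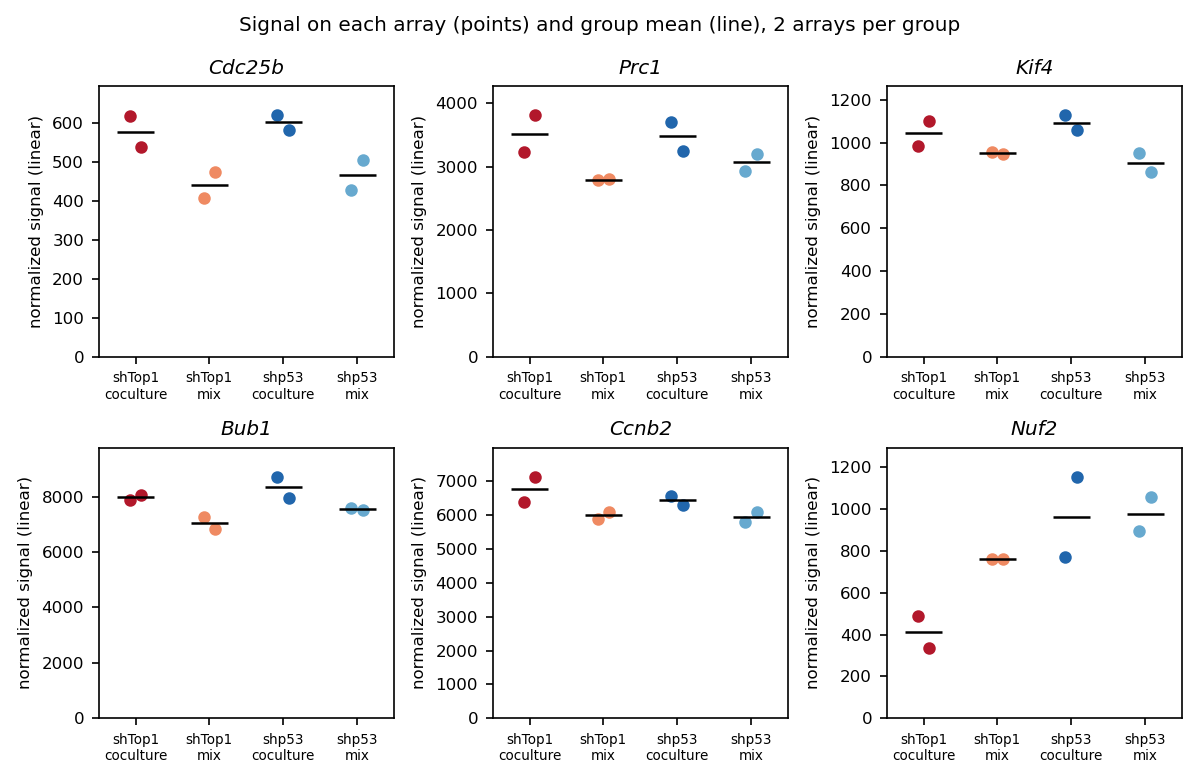
Normalized signal on a linear axis from 0 (points, 1 per array) and the group mean (line) for Cdc25b, Prc1, Kif4, Bub1, Ccnb2 and Nuf2 in the 4 groups of 2 arrays, each panel with its own axis. In the first 5 genes all coculture points are above all mix points; for Nuf2 the shTop1 coculture points, at 488 and 334, are the lowest.

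Taken by knockdown, no member passed the test in either. In shTop1, coculture against mix, the members' median was 0.06 log2 (0.03 over all genes), 30 of 41 were above 0, against 55.6% of all genes, and the smallest limma adjusted p was 0.544, for Nuf2, with 0% of all genes passing. At an unadjusted p under 0.05, Cdc25b and Prc1 were higher, where 5.12% of all genes were, and Nuf2 was lower, where 3.08% were. Both coculture arrays were above both mix arrays in 15 of 41 members, 36.6% against 24.5% of all genes, and below in 3 of 41, against 16.9%. Those 3 were Nuf2, Cdc20 and Anln. Without shTop1 coculture replicate 1 the median was 0.11 log2.

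In shp53, coculture against mix, the median was 0.06 log2 (0.01 over all genes) and 31 of 41 members were above 0, against 53% of all genes. The smallest limma adjusted p of a member was 0.718, for Cdc25b, with 0% of all genes passing. Cdc25b was the 1 member higher at an unadjusted p under 0.05, against 3.87% of all genes, and 0 were lower, against 2.99%. Both coculture arrays were above both mix arrays in 17 of 41 members, 41.5% against 20.9% of all genes, and below in 0 of 41, against 17.1%. Kif4, the member with the next smallest p, was at 0.27 ± 0.11 log2 with a limma adjusted p of 0.729. Without shp53 mix replicate 2 the median was 0.10 log2, and without shp53 coculture replicate 2 it was 0.09.

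Cdc25b had nearly the same value in both knockdowns, 0.38 ± 0.14 log2 in shTop1 and 0.36 ± 0.14 log2 in shp53, a difference of 0.02 with a 95% interval of -0.46 to 0.50. Nuf2 was at -0.89 ± 0.25 log2 in shTop1, 0.540-fold, and at -0.04 ± 0.25 log2 in shp53. The difference of the 2 effects was -0.85 ± 0.35 log2, with a 95% interval of -1.71 to 0.01, a limma p of 0.0523 before adjustment and 1 after it. It was -1.11 without shTop1 coculture replicate 1 and -0.58 without replicate 2. It was -0.56 without shp53 coculture replicate 2. Foxm1 had the next smallest p for this difference, at 0.49 ± 0.38 log2. It was 0.75 without shTop1 coculture replicate 1 and 0.23 without replicate 2. It was 0.84 without shp53 mix replicate 1, 0.14 without shp53 mix replicate 2 and 0.24 with its probe sets averaged.

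Over all members the difference of the coculture effects, shTop1 minus shp53, had a median of -0.02 log2, and 20 of 41 were above 0, against 51.5% of all genes. The median was 0.03 under median centring, and also 0.03 without the quantile step, so it has no direction. None of the 41 members had an unadjusted p under 0.05, where 2.63% of all genes were higher and 1.68% lower, and 0% of genes passed the adjusted test in limma. The intervals are wide here, with a median reach of 0.39 log2 to either side, and 22 of 41 lay wholly within 0.5 log2 of 0.

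**Figure D4:**
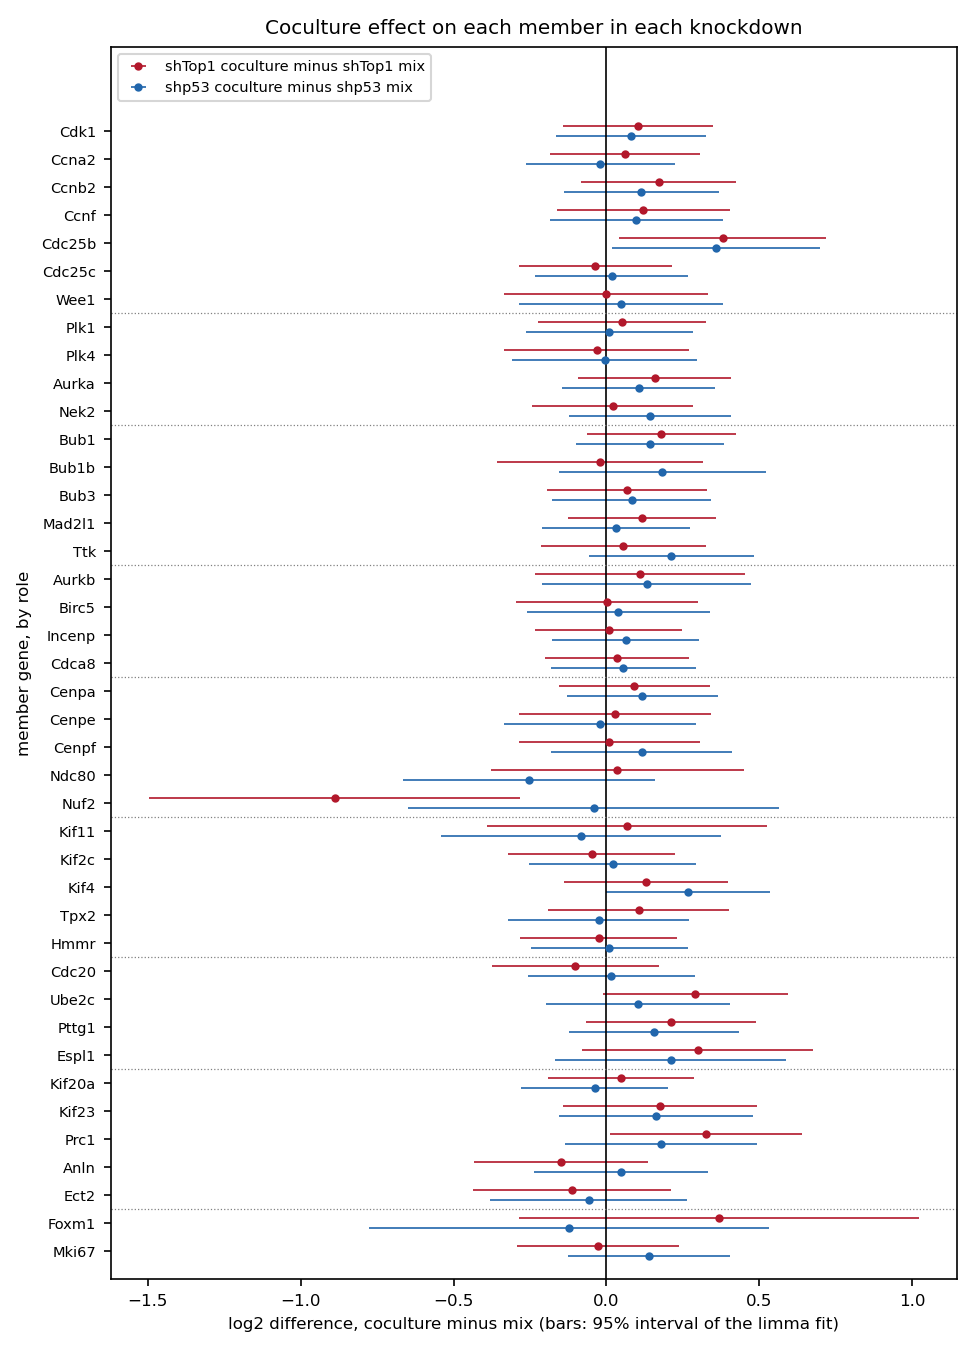
Log2 difference, coculture minus mix, of each of the 41 members (rows, by role) in shTop1 (red) and in shp53 (blue), with the 95% interval of the limma fit. Nearly all intervals cross 0 and those of the 2 knockdowns overlap for every member; Nuf2 in shTop1, at -0.89, lies farthest from 0.

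Between the knockdowns, with coculture and mix averaged, the members' median was -0.03 log2 for shTop1 minus shp53, against -0.0036 over all genes tested, and 14 of 41 were above 0, against 48.7% of all genes. The median was 0.05 with median centring and 0.01 without shTop1 coculture replicate 1. No member passed the adjusted test, with 0% of all genes passing. Nuf2 was the 1 member lower at an unadjusted p under 0.05, against 2.29% of all genes, and 0 were higher, against 2.40%. All 4 of its shTop1 arrays were below all 4 shp53 arrays, which held for 1 of 41 members and 1.07% of all genes. For 0 of 41 members were all shTop1 arrays above all shp53 arrays, against 1.02% of all genes. The Nuf2 difference was -0.77 ± 0.18 log2, 0.586-fold, with a limma p of 0.00448 before and 0.703 after adjustment. Its mean signals were 411 in shTop1 against 964 in shp53 cocultures, and 761 against 977 in the mixes. The highest shTop1 array, at 762, was close to the lowest shp53 array, at 772. Mki67 followed at -0.10 ± 0.08 log2. For 39 of 41 members the 95% interval lay within 0.5 log2 of 0, with Nuf2 and Foxm1 as the exceptions. These intervals are of the bulk signal. With knockdown to mock cells at 1:4 in both arms, they do not bound the difference between the knockdown cells themselves.

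The array carries several probe sets for most members, and they did not all move together. Of 94 member probe sets 90 passed the filter, and 55 of the 90 were above 0 in coculture against mix, with a median of 0.02 log2, against 0.00 over 31571 probe sets tested. None was called, and the smallest limma adjusted p was 0.410, for the dimmest Plk4 probe set, at -0.40 ± 0.09 log2 over both knockdowns, -0.32 in shTop1 and -0.48 in shp53. The dimmer probe sets of Anln and Cenpe were at 0.29 ± 0.11 and -0.33 ± 0.12 log2. These were named after their values were seen. Among 27 members with more than 1 probe set past the filter, 15 had probe sets on both sides of 0. Averaging a gene's probe sets turned the sign for Wee1, Bub1b, Bub3, Cenpe, Kif11, Kif2c, Cdc20, Kif23 and Anln. The average gives dim probe sets, also those below the filter, the same weight as bright ones. Cdc25b and Nuf2 rest on 1 probe set each. In 12 members the probe set used carries a suffix for probes that may match several transcripts, Prc1 among them.

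**Figure D5:**
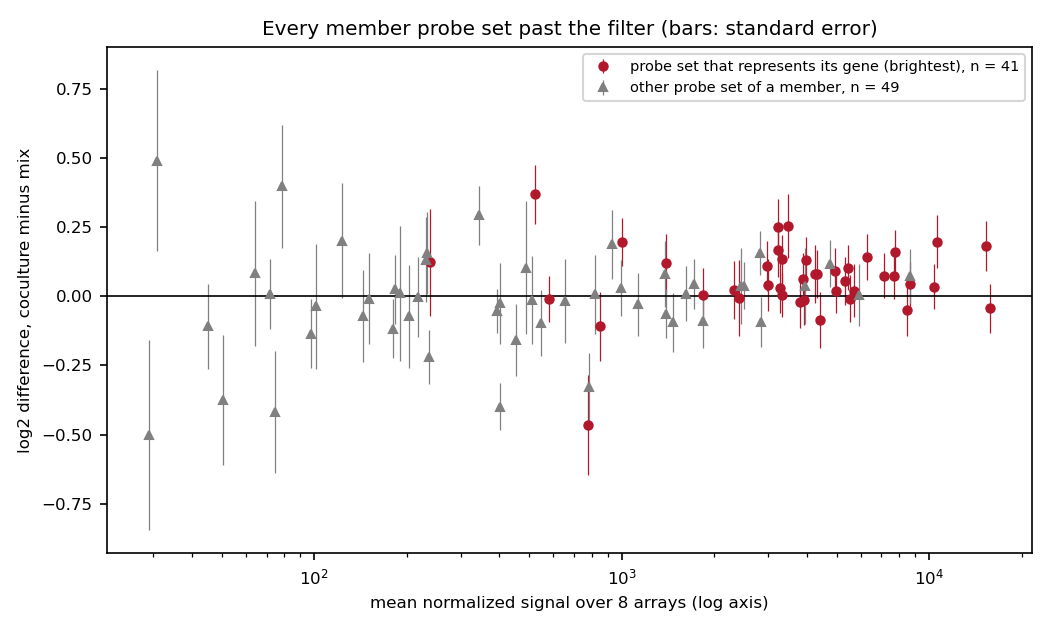
Log2 difference, coculture minus mix over both knockdowns (vertical axis, bars are standard errors), of the 90 member probe sets past the filter against their mean signal (log axis), with the probe set that represents each gene in red and the others in grey. Points scatter around 0, 55 of 90 above it.

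Beside the members, 106 other genes of chromosome structure, the anaphase-promoting complex, kinetochore and spindle, the MuvB complex and inhibitors of the G2 to M step were tested. Their median coculture difference was 0.03 log2, 60 of 106 were above 0, 56.6% against 55.3% of all genes, and none passed the adjusted test in limma. At an unadjusted p under 0.05, 9 of 106 were higher, against 7.09% of all genes, and 3 were lower, against 4.63%, so these counts were near the background. Top2a, which untangles DNA before anaphase, was at 0.17 ± 0.07 log2, and the cohesin regulator Pds5b at 0.18 ± 0.07 log2. The anaphase-promoting complex subunits Cdc26 and Anapc10 were at -0.14 and -0.17 log2. The kinesins Kif14 and Kif22 were at 0.36 ± 0.12 and -0.21 ± 0.07 log2. Of the MuvB complex, Lin9 had the smallest p of these genes, at -0.47 ± 0.09 log2 with a limma adjusted p of 0.333, while Lin37 was at 0.36 ± 0.12 log2. The p53 target Cdkn1a, an inhibitor of cyclin-dependent kinases, was at 0.44 ± 0.12 log2 with a limma adjusted p of 0.345, and Gadd45b, a stress gene, at 0.27 ± 0.10 log2.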

How the data were processed

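Per the labels' protocols, total RNA was purified with RNeasy columns, with DNase digestion, and labelled with biotin by the standard Affymetrix protocol. The deposited values are intensities of 45101 probe sets; in every array their mean after trimming 2% at each end is 500, so the authors had scaled them to a common level, and no source used here names the tool. A probe set was given a gene where the platform annotation lists 1 symbol, which held for 34958, while 932 list several and 9211 are not listed. Intensities were quantile normalized, log2(value + 16) was taken, and the brightest probe set stood for its gene. Genes with a mean of at least 22.1, the 30th percentile of all probe sets, were tested. limma 3.58.1 in R 4.3.3 fitted 4 group means (4 residual degrees of freedom) and 5 contrasts, with Benjamini-Hochberg adjustment over all 14267 genes. Replicates correlated at 0.981 to 0.988, and no probe set had the same value on both arrays of a group. On simulated data, 56% of genes changed by 1 log2 and 15% of those changed by 0.5 were recovered in the comparison averaged over both knockdowns. Within 1 knockdown these shares were 34% and 0% for shTop1, and 39% and 3% for shp53. The sizes refer to the bulk signal, not to a change within the knockdown cells alone. The same replicate number did not pair arrays (correlations of deviations -0.0067 to 0.051).

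The members, the lists and the tests were chosen with earlier results of these data known. Every member is named with its role, and values per array are given for the 2 members of a role with the smallest p in the averaged comparison, the 2 with the smallest p in each other comparison, and the brightest and dimmest member. From each other pathway list the 2 genes with the smallest p are named. Sequences are from RefSeq on GRCm38.p6. Alternatives covered the scaling, filter, pseudocount, choice of probe set, variance model, the groups fitted, a replicate block and leaving out each array.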

Additional observations from a re-analysis of the deposited data

How the results depend on the processing

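No member was called in any comparison under any alternative run, and the members' smallest limma adjusted p over the alternatives was 0.135 for the averaged coculture comparison, 0.297 for shTop1 and 0.591 for shp53. Median centring in place of quantile normalization put the members' median log2 difference at 0.129 averaged over both knockdowns, 0.132 in shTop1, 0.114 in shp53, 0.030 for the difference of the coculture effects and 0.052 for shTop1 minus shp53, with 9 members whose cocultures were all above their mixes (6.91% of all genes) and Cdc20 at 0.053. In the averaged comparison it also put the median of all genes at 0.068, against 0.022 with quantile normalization, with 64.5% of all genes above 0. Without the quantile step the difference of the effects had a median of 0.026. With a gene's probe sets averaged, the averaged comparison had a median of 0.032, 3 such members (4.72% of all genes), Kif23 at -0.10 and Cdc20 at 0.020. Counting members with separated arrays under alternatives was added after seeing the data. Trended and robust variances called 31 genes in the averaged comparison, 19 higher and 12 lower, 3 in shTop1 and 1 in shp53, none of them a member. Leaving out each array in turn gave medians of 0.042 to 0.090 (averaged), 0.046 to 0.11 (shTop1), 0.059 to 0.10 (shp53), -0.028 to 0.049 (difference of the effects) and -0.042 to 0.0068 (shTop1 minus shp53). Named members that crossed 0 then were Foxm1 (-0.055 to 0.30, below 0 without shTop1 coculture replicate 2 or shp53 mix replicate 1), Cdc20 (-0.090 to 0.0034) and Tpx2 (-0.018 to 0.098). The cause was not tested for any of these. A fit with a replicate block gave 0 calls. Its median of 0.063 could not differ from the main fit, since every group holds both replicate numbers. The fit of only the groups compared was run for shTop1 and for shp53. Precision is limited by 2 arrays per group.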
